A study of Bos taurus with 18 samples.

Results

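Bovine embryos with 8 or 16 cells and blastocysts, the stages at which the embryonic genome is known to be in use, were compared with oocytes at the germinal vesicle (GV) stage and at metaphase II (MII) and with 4-cell embryos, the stages known for little transcription. The mean of the 3 later stage means was set against the mean of the 3 earlier stage means, with 9 libraries on each side. Of 17138 genes tested, 9695 passed the test between the sides, and 5200 of these kept 1 direction over all stages. That is, all 3 later stage means lay above, or all 3 lay below, every earlier stage mean. Among the 5200 genes, 2721 were higher and 2479 were lower in the later stages. The words silent and active for the 2 sides come from general knowledge of bovine development, since RNA levels and not transcription were measured.

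A growing oocyte stores RNA and protein and then stops transcribing before it matures. The first cleavages run on this store, while maternal RNA is deadenylated and degraded, until the embryo's own genome takes over. In cattle the main wave of this activation is known from the 8-cell to 16-cell stage, later than in the mouse, and the first lineages, trophectoderm and inner cell mass, form at the blastocyst stage.

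The later groups were in vitro produced 8-cell embryos, 16-cell embryos and blastocysts of a German Simmental x Brahman cross, whose sire the protocols describe as a Zebu bull. The earlier groups were GV and MII oocytes of the German Simmental breed, both denuded of cumulus cells, and 4-cell embryos of the same cross as the later ones. Oocytes and embryos therefore differ in breed too, which cannot be told apart from stage, although 4-cell embryos carry the same cross as the later side. Each stage had 3 libraries, each from a pool of 10 oocytes or embryos. MII oocytes were matured in vitro, and embryos were fertilised and cultured in vitro and picked by eye. The labels name no batch, and nothing states that the pools came from separate collections, so p-values measure the spread between these pools.

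Libraries held 2438473 to 11971840 reads assigned to genes, and 11970 to 15399 genes had reads. Replicate 2 of the 8-cell stage had 12393 genes with reads, against 14081 and 14618 in the others. Replicate 1 of the 16-cell stage had 11970, against 12903 and 14146, although it had the most reads of its stage. In the share of reads from higher genes of 1 direction it was like the others (35.0%, against 32.7% and 35.3%). These 2 are called the libraries that stood apart, a choice made after seeing the data. Counts without both are given beside the main ones. Levels below are scaled reads, that is reads divided by the size factor of the library, and a single read was worth 0.563 to 2.82 of them. They are relative to the other RNA of a library, so fewer cells of a type and less RNA per cell cannot be told apart, and no amount per embryo is given. Differences are those of the deposited variance-stabilised values, later minus earlier, ± the standard error from limma. Between 2 stages such values come close to log2 fold changes where a gene has many reads, and are smaller where it has few. Over a side they average the stages on this log2-like scale, so they are not the fold between mean scaled reads. The gene ACCSL, for example, differed by -5.57, while its earlier mean was 7.31-fold its later mean. Defining oocyte markers were present in the earlier libraries (ZP2 at 19610.0 or more and GDF9 at 4300.4 or more in each) and the keratins KRT8 and KRT18 in blastocysts (19587 ± 8018 and 13818 ± 6365). The trophectoderm factor CDX2 stood at 144 ± 63.7 in blastocysts and was not called between the sides (adjusted p = 0.332). The deposited genome build is UMD3.1, and the table gives gene names without positions.

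Between the sides, 5041 genes (29.4% of those tested) were called higher and 4654 (27.2%) lower in the later stages, at an adjusted p under 0.05 with limma. The genes with 1 direction over all stages made up 15.9% (higher) and 14.5% (lower) of the genes tested. The median difference over all genes tested was 0.07. Without the 2 libraries that stood apart, 5558 genes were called higher and 4707 lower, of which 3157 and 2656 kept 1 direction. These tests take the spread from pools within stages. With the 6 stage means as the only units, so that differences among the stages of a side count as spread, 538 genes were higher and 109 lower.

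The genes at the border of the direction rule show how it divides. ZNF800 was just inside, with its lowest later stage mean at 9.42 and its highest earlier one at 9.42 on the deposited scale, a gap of 0.00034. S100A11 was just outside, with 5.68 for both and a gap of -0.00065. On the lower side FAM83A (gap 0.00019) was just inside and TRIM45 (gap -0.00017) just outside.

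The 2721 higher genes took 18.8 ± 5.79% of the reads of 8-cell libraries, 34.3 ± 1.45% at the 16-cell stage and 27.9 ± 0.62% in blastocysts (SD, n = 3 each). In GV and MII oocytes and 4-cell embryos they took 5.63 ± 0.16%, 5.10 ± 0.27% and 5.22 ± 0.11%. The 2479 lower genes took 16.0 ± 2.35%, 7.56 ± 0.42% and 6.91 ± 0.54% in the later stages, against 33.2 ± 0.61%, 33.7 ± 0.83% and 30.5 ± 0.20% in the earlier ones. The 8-cell libraries were the most spread, and the higher genes took 12.9% of the reads in 8-cell replicate 2. Since these genes were chosen for their direction, the shares describe how much RNA they account for and test nothing.

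**Figure D1:**
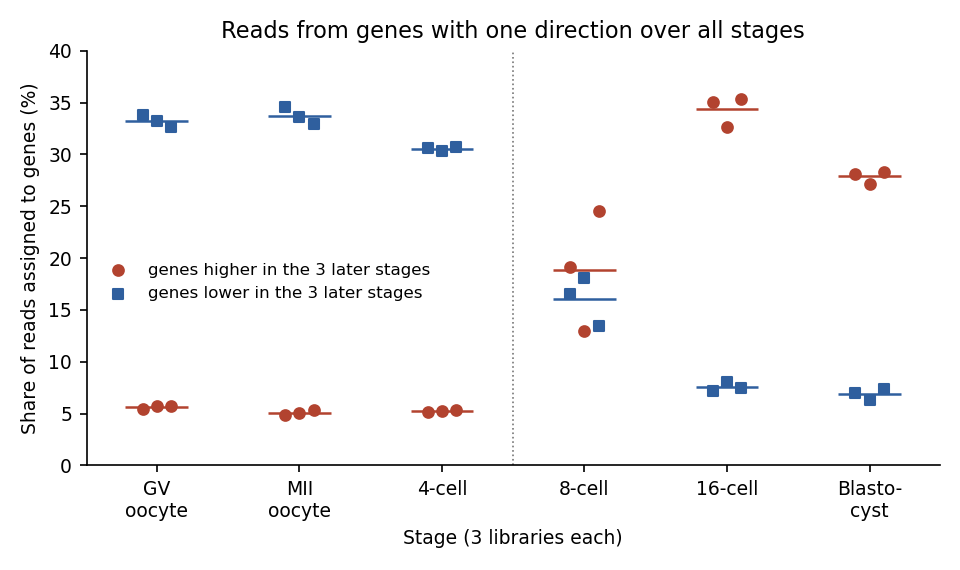
Share of the reads assigned to genes (%, vertical axis) that came from the 2721 higher genes (circles) and the 2479 lower genes (squares) in each of 18 libraries by stage, with the stage mean as a line. The 3 later stages are right of the dotted line. The shares change places between stages, with 34.3% and 7.56% at 16 cells against 5.22% and 30.5% at 4 cells, and with the 8-cell libraries between.

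The 8-cell embryo stood between the sides for most of these genes. In the higher genes, the 8-cell difference from the mean of the earlier stages was a median 52.5% of the largest later difference (quartiles 32.2% and 76.9%). At least 80% of it was present at 8 cells for 620 genes (22.8%), and under 20% for 292 (10.7%). In the lower genes the median was 38.8%, with 413 genes at 80% or more and 544 (21.9%) under 20%. The highest later level was at 16 cells for 1308 higher genes (48.1%), in blastocysts for 1085 (39.9%) and at 8 cells for 328 (12.1%). Of the lower genes, 1832 (73.9%) had their highest later level at 8 cells, and 926 (37.4%) stood lower at each step to the blastocyst.

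The 3 earlier stages were more alike than the 3 later ones. Over all genes tested, 9498 (55.4%) differed among the later stages and 457 (2.67%) among the earlier stages by an F test in the same fit. Of the 2721 higher genes 1326 (48.7%) differed among the later and 54 (1.98%) among the earlier stages, and of the 2479 lower genes 1308 (52.8%) and 30 (1.21%). With weights for the quality of each library, 2024 genes differed among the earlier stages, so this count depends on the weights, and without GV oocyte replicate 1 it was 244.

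**Figure D2:**
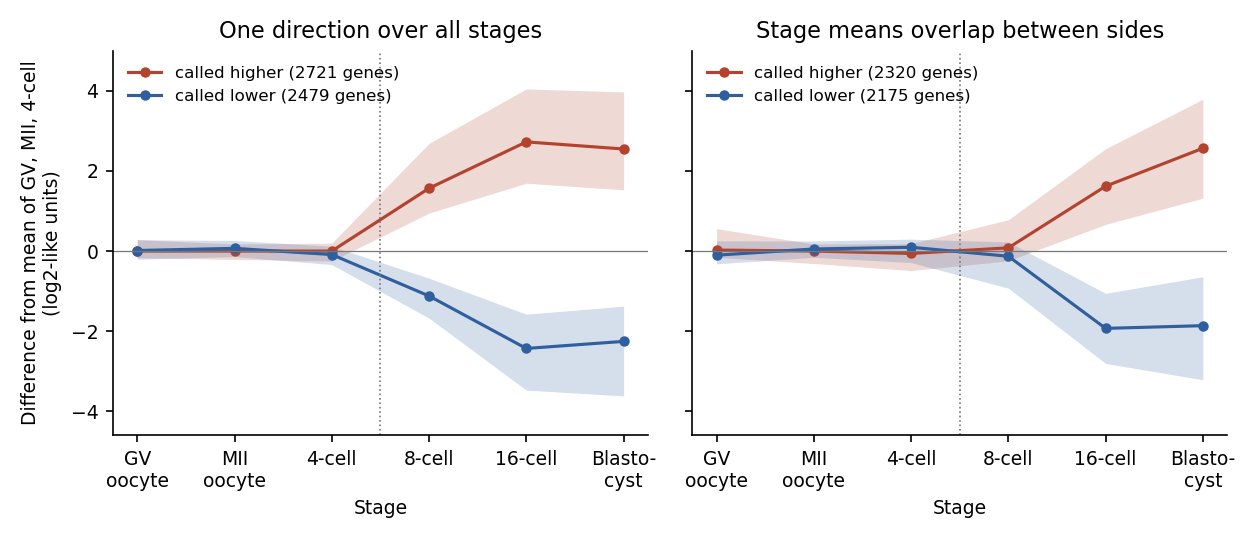
Difference of each stage mean from the gene's mean over GV and MII oocytes and 4-cell embryos (log2-like units, vertical axis), as the median (points) and quartiles (band) over called genes. The left panel shows genes with 1 direction over all stages, whose median at 8 cells is 1.57 (higher) and -1.12 (lower). The right panel shows called genes whose stage means overlap between the sides, whose 8-cell medians are 0.08 and -0.13.

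Transcription factors linked to genome activation were the list with the largest share of genes that were higher in all later stages. The list was written with earlier results of these data known, so its share describes it and tests nothing. Of 22 tested, 19 were called higher and 1 lower, and 15 (68.2%) were higher with 1 direction, against 15.9% of all genes, with a median difference of 4.12 against 0.07. KLF17, a Krüppel-like factor, had 127, 6843 and 10364 scaled reads (lowest, median and highest of 9) in the later libraries, against 0, 0.854 and 11.8 in the earlier ones. The difference was 8.95 ± 0.31 (adjusted p = 8.44e-15). KLF17 was one of the 12 largest increases, which, like the 12 largest decreases, were taken from genes with 1 direction, no overlap between libraries and a mean of at least 100 scaled reads on their higher side. The lack of overlap in these genes comes from that choice and is no result. Its level lay near 8457 and 7265 in 8-cell and 16-cell embryos but at 142 ± 25.3 in blastocysts.

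The homeobox gene ARGFX peaked at 16 cells. It had 1241 ± 847 scaled reads at 8 cells, 8959 ± 4435 at 16 cells and 243 ± 64 in blastocysts, against stage means of 6.95, 0.285 and 0.623 in GV and MII oocytes and 4-cell embryos (8.49 ± 0.49, adjusted p = 1.46e-11). DUXA, a double homeobox gene known to act at genome activation in humans, had 26.7, 5695 and 22781 in the later and 0.564, 6.19 and 13.3 in the earlier libraries (7.39 ± 0.31, adjusted p = 1.25e-13). PNRC1, a coactivator of nuclear receptors, had 26699.6 ± 7169.6, 43907 ± 9261 and 1464 ± 186 scaled reads over the later stages and 42.8, 35.2 and 34.6 over the earlier ones. The later libraries of DUXA lay above all its earlier ones, as for 3.59% of all genes tested. DUXA was named from a list written with earlier results of these data known, so this is no result. NFYC, a subunit of the NF-Y factor, was the list's lower gene (-0.82 ± 0.21, adjusted p = 0.00219). DUXA and ZSCAN4 belong to families with close copies, so their values are uncertain to that degree.

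TFAP2C, an AP-2 factor needed for trophectoderm in the mouse, had the largest difference of the named genes and a level that barely moved over the later stages. Its libraries ranged from 2861 to 7561 scaled reads in the later stages (median 4361), and from 0 to 1.9 in the earlier ones, where 5 of 9 had no read. The difference was 10.4 ± 0.31 (adjusted p = 1e-15), while the 3 later stages did not pass a test among themselves (adjusted p = 0.511). With MKRN3, a ring finger gene that is imprinted in humans and mice, and PPM1K, a mitochondrial phosphatase, it held the later stage means with the smallest spread relative to the difference, among genes with a difference over 4 that met the same conditions. MKRN3 had 114 ± 47.5, 98.8 ± 28.1 and 94.1 ± 43.2 at 8 cells, 16 cells and the blastocyst, against at most 2.61 in an earlier library. PPM1K had 548, 819 and 1362 in the later libraries and 1.71, 14.6 and 39.2 in the earlier ones (5.77 ± 0.43, adjusted p = 5.77e-10).

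Among pluripotency genes, 10 of 19 (52.6%) were called higher and 3 (15.8%) lower, against 29.4% and 27.2% of all genes. With 1 direction 9 (47.4%) were higher, against 15.9% of all genes (median difference 1.63). ZFP42, a zinc finger protein of pluripotent cells, had 732 ± 304, 3068 ± 1048 and 5451 ± 1076 scaled reads over the later stages and no more than 7.33 in any earlier library (9.47 ± 0.36, adjusted p = 3.17e-14). NANOG was highest at 16 cells, with 1537 ± 547 against 197 ± 189 at 8 cells and 168 ± 128 in blastocysts, and 0.316, 0 and 5.11 in the earlier stages (6.38 ± 0.59, adjusted p = 1.32e-08). POU5F1 was called higher (1.63 ± 0.22, adjusted p = 2.9e-06) but not in 1 direction, since its 8-cell mean of 178 lay below the 272 of GV oocytes. SOX2 had 24.4, 139 and 367 in the later and 67.2, 139 and 225 in the earlier libraries, a difference of 0.03 ± 0.39 that did not pass (adjusted p = 0.954). STAT3, a mediator of cytokine signals, was lower (-2.07 ± 0.23, adjusted p = 2.49e-07).

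**Figure D3:**
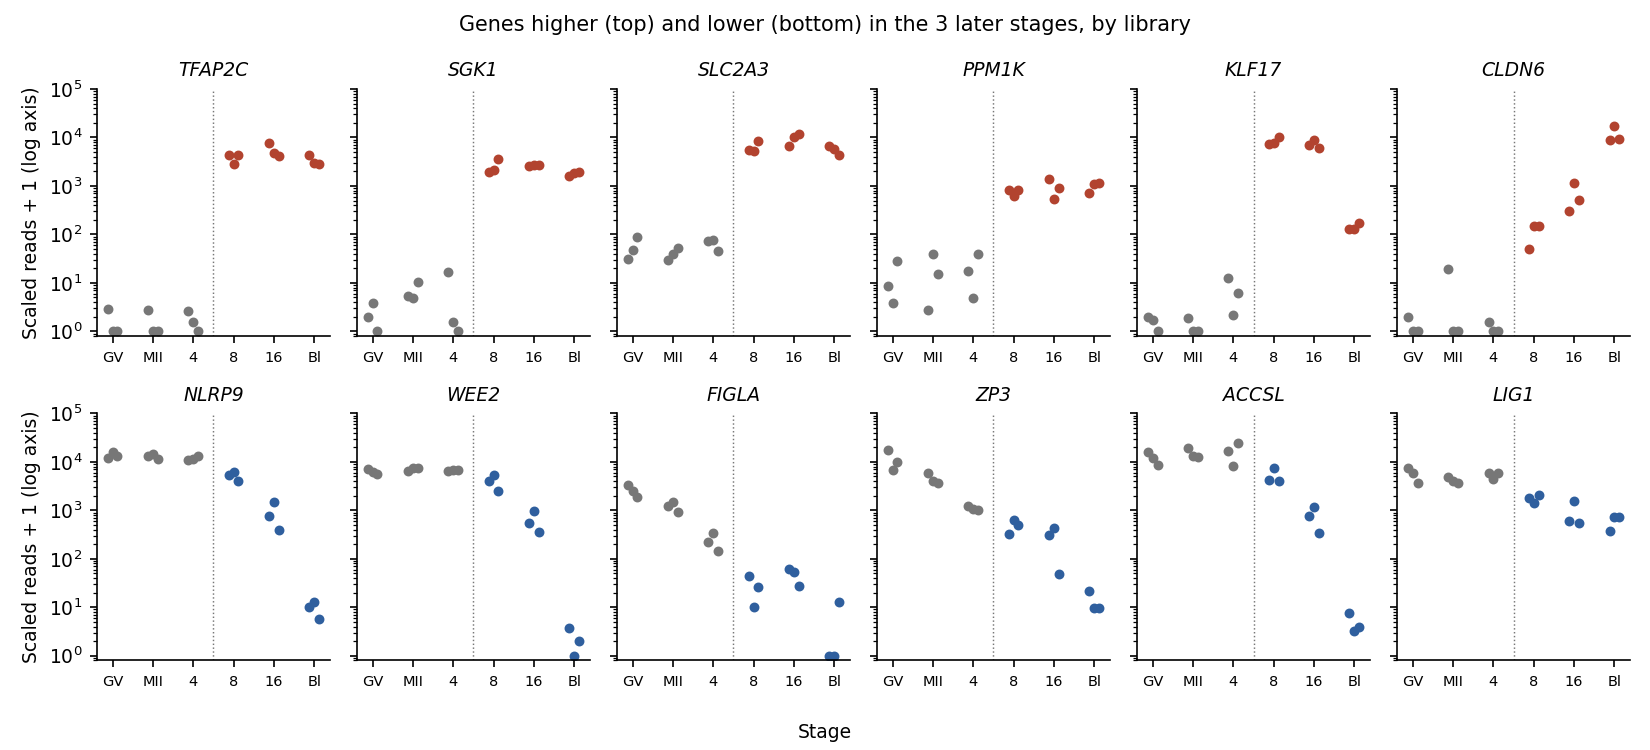
Scaled reads plus 1 (log axis) of 12 genes in each of 18 libraries, by stage from GV oocyte to blastocyst (Bl), with the 3 later stages right of the dotted line in colour. TFAP2C, SGK1, SLC2A3 and PPM1K are on a plateau from 8 cells, KLF17 drops to 142 in blastocysts and CLDN6 climbs to 11715. NLRP9, WEE2 and ACCSL stay level to the 4-cell stage, while FIGLA and ZP3 are lower in MII oocytes and 4-cell embryos than in GV oocytes.

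SLC2A3, a glucose transporter, had 4338, 6688 and 11771 scaled reads in the later libraries and 29, 45.9 and 88.7 in the earlier ones (6.99 ± 0.22, adjusted p = 1.69e-15). The fructose transporter SLC2A5 climbed over the later stages, with 106 ± 44.5, 1472 ± 806 and 3838 ± 706, against at most 1.69 in the earlier libraries (8.23 ± 0.38, adjusted p = 4.96e-13). The phosphate transporter SLC34A2 (8.28 ± 0.48, adjusted p = 2.01e-11) took the same order of stages, and the folate receptor FOLR1 (9.43 ± 0.38, adjusted p = 6.54e-14) had its highest stage mean at 16 cells. PDGFRA, a growth factor receptor known from the hypoblast, had 524, 3082 and 4237 in the later and 0, 2.2 and 45.7 in the earlier libraries (8.2 ± 0.47, adjusted p = 1.46e-11). SGK1, a kinase that regulates ion transport, was even over the later stages with 2583 ± 939, 2657 ± 36.8 and 1765 ± 175, and its earlier libraries ranged from 0 to 15.8 (8.62 ± 0.37, adjusted p = 2.19e-13). MFAP5, a protein of extracellular microfibrils, had 32.1, 799.6 and 1321 in the later libraries and at most 0.563 in the earlier ones (8.00 ± 0.53, adjusted p = 1.01e-10).

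Chromatin genes moved unevenly. Of 54 histone-modifying enzymes, 26 (48.1%) were called higher and 8 (14.8%) lower, with 18 (33.3%) higher and 3 lower in 1 direction (median difference 0.44). Of 38 members of remodelling complexes, 18 (47.4%) were called higher and 8 (21.1%) lower, with 12 (31.6%) higher and 0 lower in 1 direction. Over all genes 29.4% were called higher and 27.2% lower, with 15.9% and 14.5% in 1 direction. KDM6A, a demethylase of H3K27, had 219, 1166 and 2860.4 scaled reads in the later and 7.9, 37.9 and 92.4 in the earlier libraries (4.64 ± 0.26, adjusted p = 1.09e-11). SETD2, the methyltransferase of H3K36 in transcribed genes, had 1991, 6117 and 7926 in the later and 111, 218 and 455 in the earlier libraries (4.34 ± 0.25, adjusted p = 1.53e-11). CHD1, a remodeller tied to transcribed chromatin (3.7 ± 0.27, adjusted p = 4.5e-10), and the heterochromatin protein CBX3 (4.82 ± 0.43, adjusted p = 7.98e-09) were higher too. For all 4 the 9 later libraries lay above the 9 earlier ones, as for 3.59% of all genes tested. They were chosen for 1 direction and the smallest p in their lists, which favours such separation, so it is no result. The same holds for the list members given below as without overlap. CREBBP, an acetyltransferase, and HDAC7, a deacetylase, were lower (-0.8 ± 0.16 and -2.01 ± 0.35, adjusted p = 0.000263 and 5e-05).

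The histones themselves went both ways. H2AFZ, which encodes the variant H2A.Z found at promoters, had 4667, 11845 and 27219 scaled reads in the later libraries, against 8.46, 42.5 and 102 in the earlier ones (7.99 ± 0.28, adjusted p = 8.44e-15). Its stage means were 13796 ± 1739.7, 17132 ± 8757 and 5292 ± 1052, high from 8 cells on. The oocyte linker histone H1FOO fell to 2608 ± 746 at 8 cells, 204 ± 108 at 16 cells and 0.989 ± 1 in blastocysts, against 5417 ± 2641, 5428 ± 2475 and 3987 ± 1135 in the earlier stages (-5.26 ± 0.28, adjusted p = 5.7e-12). The linker histone gene H1F0 was lower as well (-1.45 ± 0.27, adjusted p = 9.93e-05). In total 6 of 12 linker and replacement histone genes (50.0%) were called higher and 3 (25.0%) lower. Over all genes the shares were 29.4% and 27.2%, so the lower share is near that of all genes. Histone genes have close copies, which makes their values uncertain.

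Genes of DNA methylation stood on both sides. Of 22 tested, 7 (31.8%) were called higher and 9 (40.9%) lower, against 29.4% and 27.2% of all genes, so the higher share is near that of all genes. TET1, an enzyme that oxidises methylated cytosine, had 1996 ± 1593, 8037 ± 2323 and 13805 ± 1419 scaled reads over the later stages, against 13.4, 25.9 and 47.1 in the earlier ones (7.84 ± 0.40, adjusted p = 2.64e-12). UHRF1, which recruits the maintenance methyltransferase to replicated DNA, fell to 2405 ± 582, 288 ± 127 and 44.1 ± 10.1, against 3912 ± 1269, 8402 ± 1199.7 and 6994 ± 2449 (-4.25 ± 0.21, adjusted p = 2.34e-12). Its paralog UHRF2 (-2.88 ± 0.18, adjusted p = 5.97e-11) and the maintenance enzyme DNMT1 (-2.21 ± 0.18, adjusted p = 2.65e-09) fell in 1 direction too. ZFP57, a guardian of imprints in the mouse, was higher (5.8 ± 0.63, adjusted p = 1.26e-07), although its 8-cell libraries spread widely (150.5 ± 196). DNMT3B was called lower (-0.75 ± 0.31, adjusted p = 0.0468), although its blastocyst mean of 2178 lay above those of the earlier stages (832, 1008 and 944). The call was lost in 15 of 18 fits without 1 library (adjusted p up to 0.112). Its difference was -1.24 without the 2 libraries that stood apart (adjusted p = 9.61e-06) and 0.07 without the 16-cell stage (adjusted p = 0.842).

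The RNA polymerase II machinery was called in both directions, in shares near those of all genes. Of 70 subunits, general factors and Mediator members, 24 (34.3%) were called higher and 22 (31.4%) lower, against 29.4% and 27.2% of all genes, with a median difference of 0.10 that was -0.15 when library medians were set equal, and 17 were higher and 8 lower in 1 direction. Without the 2 libraries that stood apart, 13 were lower in 1 direction. SUPT4H1, which forms the elongation factor DSIF with a partner, had 2069.6 ± 253, 1034 ± 533 and 474 ± 121 scaled reads over the later stages, against 0.787 in GV oocytes, 0.22 in MII oocytes and 25.3 ± 7.97 in 4-cell embryos (7.26 ± 0.32, adjusted p = 2.6e-13). POLR2B, the second largest polymerase subunit, was even over the later stages, with 1676, 2887 and 4337 in their libraries and 372, 392 and 877 in the earlier ones (2.67 ± 0.19, adjusted p = 2.97e-10). MED14, the backbone of Mediator, fell to 1162, 2112 and 3268, against 5408, 9015 and 13083 (-2.19 ± 0.16, adjusted p = 3.68e-10). CDK7, the kinase of TFIIH, was lower too (-1.63 ± 0.21, adjusted p = 1.3e-06).

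Genes for making proteins were mostly higher, but many of them did not keep 1 direction. Of 78 cytosolic ribosomal protein genes, 75 were called higher and 0 lower, with a median difference of 2.33, yet 23 (29.5%) were higher in all later stages. In the other 52 called genes the 8-cell mean was at or below that of GV oocytes, and in 50 of these it was above that of 4-cell embryos. Their miss of the rule thus depends on the GV level as well as on the 8-cell level. Of 63 nucleolar and ribosome biogenesis genes 40 were called higher and 8 lower, with 28 (44.4%) higher and 4 lower in 1 direction. Of 41 translation factors 28 were called higher and 3 lower, with 17 (41.5%) and 1 in 1 direction. Of 19 cytosolic aminoacyl-tRNA synthetases, which charge tRNAs, 12 were called higher and 1 lower, with 7 (36.8%) higher and 1 lower in 1 direction (median difference 0.81). Without the blastocyst stage 5 of them were called higher and 5 lower. With all stages, 29.4% of all genes were called higher and 27.2% lower, with 15.9% and 14.5% in 1 direction.

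RPL26 of the large subunit had 747 ± 142, 3279 ± 1013 and 1712 ± 787 scaled reads in the later stages, against 359 ± 32.6, 268 ± 35.5 and 24.3 ± 4.38 in the earlier ones (3.47 ± 0.21, adjusted p = 2.55e-11). The 4-cell embryo held the lowest level, as it did for 63 of the 78 genes among the earlier stages, while 70 were highest in GV oocytes. Of these 78 genes 47 differed among the earlier stages, out of 457 such genes in all, and ribosomal protein genes have many processed copies that may share reads. NOP56, a core protein of nucleolar ribonucleoproteins, had 785, 1533 and 3181 in the later and 52.4, 132 and 238 in the earlier libraries (3.66 ± 0.22, adjusted p = 3.01e-11). TAF1D, a factor of RNA polymerase I, was at 3713 ± 987 at 8 cells, 4025 ± 1552 at 16 cells and 959 ± 252 in blastocysts, and at most 59.4 in an earlier library (7.14 ± 0.43, adjusted p = 2.99e-11). ETF1, the release factor of translation, had 2324, 5350.1 and 11804 in the later and 99.1, 138 and 214 in the earlier libraries without overlap (5.19 ± 0.20, adjusted p = 5.34e-14). Against them, the polymerase I subunits POLR1B (-1.22 ± 0.18, adjusted p = 7.88e-06) and POLR1E (-1.19 ± 0.17, adjusted p = 7.55e-06) were lower.

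Respiratory chain genes were mostly called higher, but rarely in 1 direction. Of 76 nuclear-encoded subunits of the respiratory chain and ATP synthase, 44 were called higher and 5 lower (median difference 1.02), but only 1 gene, NDUFB2, was higher in 1 direction, which is 1.32% of them against 15.9% of all genes. Relative to the mean of the earlier stages, the list's median was 1.36 in GV oocytes, -0.25 in MII oocytes and -1.04 in 4-cell embryos, then -1.14 at 8 cells, 1.22 at 16 cells and 3.00 in blastocysts. Its 8-cell mean was below all 3 earlier stage means for 41 genes. Calls depended on the stages used, with 19 higher and 17 lower without the blastocyst stage and 27 higher and 12 lower without the 4-cell stage. Over all genes, the higher calls were 3533 without the blastocyst stage, against 5041 with it. Without 8-cell replicate 2, 6 of the 76 were higher in 1 direction, without the GV stage 19 and without the 8-cell stage 34. NDUFB2 had 359 ± 159, 982 ± 201 and 504 ± 109 scaled reads in the later stages and 319.8 ± 76.6, 59.1 ± 17 and 38.8 ± 24.2 in the earlier ones, so its 8-cell and GV levels overlapped (2.59 ± 0.26, adjusted p = 4.43e-08). Of 75 mitochondrial ribosomal proteins, 23 (30.7%) were called higher, near the 29.4% of all genes, and 10 (13.3%) lower, against 27.2%, with 8 (10.7%) and 4 in 1 direction, and 43 had an 8-cell mean below all earlier ones.

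**Figure D4:**
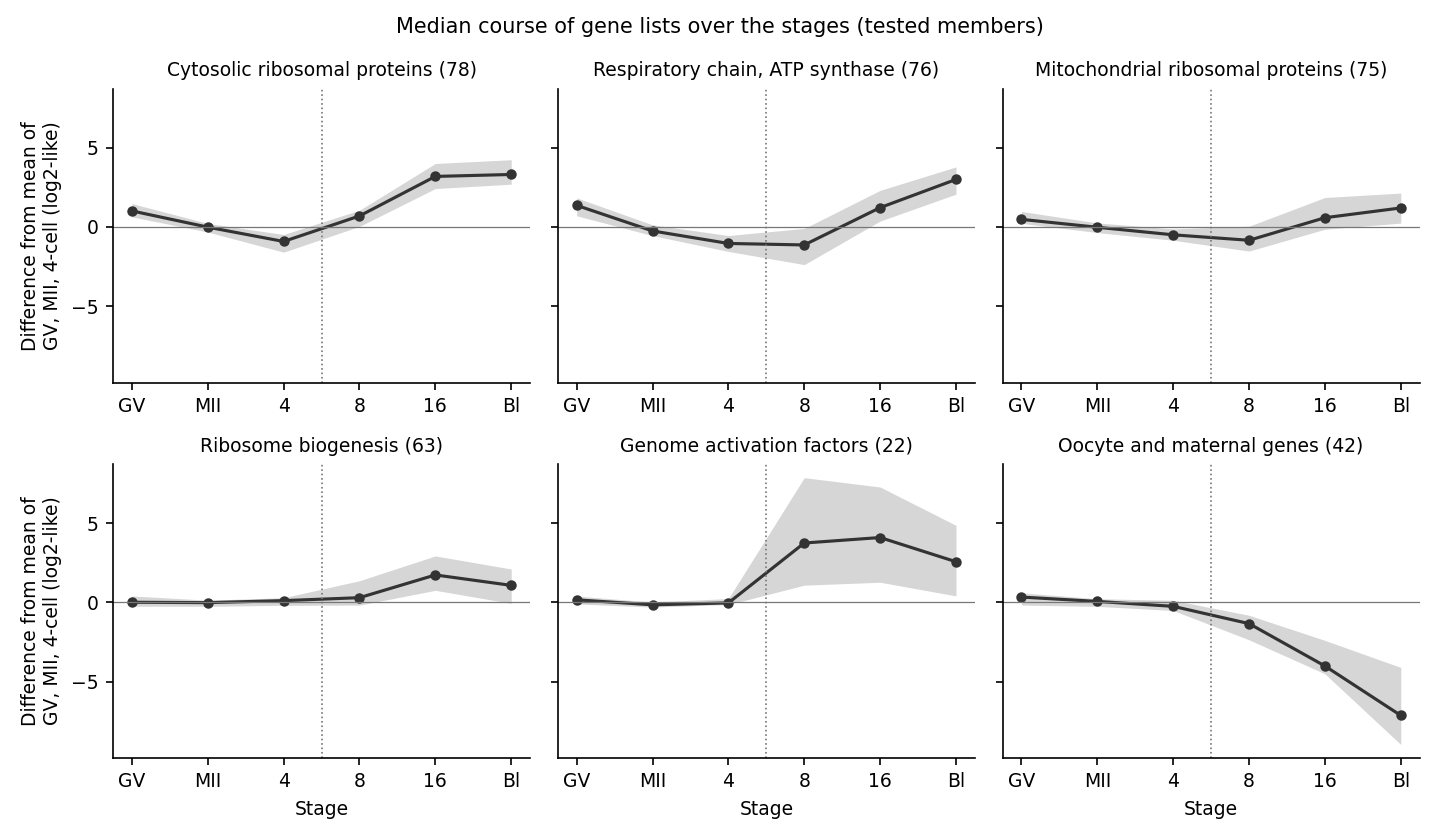
Median course (points) and quartiles (band) of 6 gene lists over the stages, as difference from the gene's mean over GV and MII oocytes and 4-cell embryos (log2-like units, vertical axis), with the number of tested members. Cytosolic ribosomal proteins and respiratory chain subunits decline from GV oocytes to 4 cells and then climb to 3.31 and 3.00 in blastocysts. Genome activation factors step up to 3.74 at 8 cells, and oocyte genes go down at each later stage to -7.14.

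Of 19 glycolysis genes 12 (63.2%) were called higher and 1 (5.26%) lower, against 29.4% and 27.2% of all genes. Without the blastocyst stage 4 of the 19 were called higher. PGK1, phosphoglycerate kinase, had 458, 2183 and 4727 scaled reads in the later and 63.5, 96.7 and 349 in the earlier libraries (3.79 ± 0.25, adjusted p = 9.19e-11). The exception LDHA, lactate dehydrogenase A, fell to 3019 ± 1598, 309 ± 43.1 and 807 ± 111, against 4545 ± 1576, 4519 ± 453 and 3098 ± 882 in the earlier stages (-2.14 ± 0.19, adjusted p = 9.35e-09). Its 8-cell and 4-cell levels overlapped, and 16-cell embryos had the lowest. Of 35 proteasome subunits 20 (57.1%) were called higher and 3 (8.57%) lower. In 1 direction 8 (22.9%) were higher, against 15.9% of all genes. Of 22 cholesterol synthesis genes 6 (27.3%) were called higher, near the 29.4% of all genes, and 3 (13.6%) lower, against 27.2%. The synthase HMGCS1 (-1.56 ± 0.20, adjusted p = 9.99e-07) and the feedback regulator INSIG1 (-2.07 ± 0.34, adjusted p = 2.98e-05) were lower.

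Splicing factors leaned to the later side. Of 48 spliceosome and SR genes, 27 (56.25%) were called higher and 8 (16.7%) lower, against 29.4% and 27.2% of all genes. In 1 direction 16 (33.3%) were higher and 3 (6.25%) lower, against 15.9% and 14.5% of all genes. SFRS3, an SR splicing factor, had 468, 1247 and 2340.4 scaled reads in the later and 7.58, 16.5 and 39.3 in the earlier libraries (5.86 ± 0.30, adjusted p = 3.06e-12). Of 47 importins, exportins and nucleoporins 20 (42.6%) were called higher and 11 (23.4%) lower. Over all genes the shares were 29.4% and 27.2%, so the lower share is near that of all genes. The importins KPNA4 (4.39 ± 0.32, adjusted p = 3.96e-10) and IPO7 (3.62 ± 0.32, adjusted p = 7.79e-09) were higher with no overlap between libraries, while the nucleoporins NUP35 (-1.98 ± 0.20, adjusted p = 6.23e-08) and NUP88 (-1.44 ± 0.18, adjusted p = 1.09e-06) were lower. The median of this list was 0.16 and -0.09 with library medians set equal, so its sign depends on the scaling. Among 35 heat shock proteins and chaperones, 17 (48.6%) were called higher and 5 (14.3%) lower, against 29.4% and 27.2% of all genes. DNAJB9, a chaperone of the endoplasmic reticulum, stood out with 195, 436 and 744 in the later and 0, 1.69 and 32.6 in the earlier libraries (6.67 ± 0.50, adjusted p = 7.07e-10).

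Fewer lineage genes were called higher when the blastocyst stage was left out, and so were fewer of all genes (3533, against 5041 with it). Of 36 trophectoderm genes 21 (58.3%) were called higher and 5 (13.9%) lower, against 29.4% and 27.2% of all genes. In 1 direction 9 (25.0%) were higher, against 15.9% of all genes. Without the blastocyst stage 9 of the 36 were called higher. GATA6, a hypoblast factor, had 179 ± 76.2, 1489.8 ± 480.4 and 3924 ± 615 scaled reads in the later stages and at most 34.5 in an earlier library (7.12 ± 0.35, adjusted p = 1.86e-12). DSC2, a cadherin of desmosomes, had 253, 694 and 1540.3 in the later and 0, 0 and 10.5 in the earlier libraries (7.66 ± 0.40, adjusted p = 3.63e-12). CLDN6, a claudin of tight junctions, had 114 ± 55.1, 646 ± 426 and 11715 ± 4442, against 0.316, 6.26 and 0.188 (8.11 ± 0.48, adjusted p = 2.1e-11).

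The keratin KRT18 kept 1 direction, although at 8 cells it had reads in 1 library (10.5 scaled reads), and its call came from the blastocyst, with 3.5 ± 6.06, 12.8 ± 16.2 and 13818 ± 6365 in the later stages and at most 2.2 in the earlier libraries (4.48 ± 0.57, adjusted p = 1.29e-06). Without the blastocyst stage its difference was 0.81 and did not pass (adjusted p = 0.313). CDX2, a trophectoderm factor, had 0, 49.9 and 341 in the later and 20.9, 51.2 and 120.1 in the earlier libraries and did not pass (-0.61 ± 0.52, adjusted p = 0.332). GATA3 was called higher (1.6 ± 0.56, adjusted p = 0.02), but its difference was 0.38 without the blastocyst stage (adjusted p = 0.699). The call was also lost without the MII stage (adjusted p = 0.0655), without the 4-cell stage (0.0887), with side as the only factor (0.0983), with stage means as units (0.333) and without 16-cell replicate 3 (0.0503). ID3, an inhibitor of basic helix-loop-helix factors, went the other way, falling to 592 ± 56.1, 81 ± 65.3 and 17.9 ± 19.3, against 1599.5 ± 738, 2938 ± 857 and 1432 ± 457 (-4.56 ± 0.44, adjusted p = 3.12e-08).

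Among 46 epithelial junction and polarity genes 19 (41.3%) were called higher and 16 (34.8%) lower, against 29.4% and 27.2% of all genes. The median difference was 0.23, and -0.03 with library medians set equal. CLDN10 (-2.8 ± 0.32, adjusted p = 2.41e-07) and the catenin CTNND1 (-1.24 ± 0.21, adjusted p = 3.53e-05) were lower, against CLDN6 above. Of 16 hypoblast genes 10 (62.5%) were called higher and 3 (18.75%) lower, against the same shares of all genes. Without the blastocyst stage 4 of the 16 were called higher, and higher calls were fewer over all genes too.

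On the lower side, the oocyte and maternal-effect genes stood at the front. Of 42 tested, 39 were called lower and 1 (ZFP57) higher, and 30 (71.4%) were lower in 1 direction, against 14.5% of all genes, with a median difference of -4.14. These lists were written with earlier results of these data known. NLRP9, of a family of oocyte proteins, fell to 5158 ± 1066 scaled reads at 8 cells, 876 ± 551 at 16 cells and 8.74 ± 3.64 in blastocysts, against 13627 ± 1931, 13193 ± 1552 and 11873 ± 1053 in the earlier stages (-5.14 ± 0.20, adjusted p = 6.54e-14). The earlier levels were level within their spread. NLRP2 had the largest negative difference, with 0, 0 and 465 in the later and 1464, 2025 and 3471 in the earlier libraries (-7.11 ± 0.55, adjusted p = 1.05e-09). NLRP5, part of the subcortical maternal complex in the mouse, fell to 0, 165 and 923, against 1066, 1801 and 3920.2 (-4.95 ± 0.51, adjusted p = 5.82e-08).

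Zona pellucida genes differed in when they declined. ZP2 was at 13447 ± 5440.0, 3249 ± 1539 and 39.6 ± 4.42 in the later stages, against 31149.9 ± 9119, 40912 ± 4489 and 24332 ± 4954 (-4.71 ± 0.19, adjusted p = 7.72e-14). ZP3 was at 476 ± 148, 266 ± 199.6 and 12.7 ± 6.88, against 11384 ± 5397, 4454 ± 1145 and 1116 ± 117 (-5.05 ± 0.32, adjusted p = 6.56e-11), so its mean was already lower in 4-cell embryos than in GV oocytes. FIGLA, the factor that controls zona genes in mouse oocytes, had 25.6 ± 16.8, 46.4 ± 17.9 and 3.87 ± 6.71, against 2552 ± 718, 1213 ± 290.1 and 238 ± 98.1 (-5.66 ± 0.39, adjusted p = 1.93e-10). NPM2, a histone chaperone of eggs, and ZAR1, an RNA-binding protein of oocytes, likewise had their highest means in GV oocytes, and were lower (-6.24 ± 0.46 and -6.08 ± 0.38, adjusted p = 5.66e-10 and 5.64e-11). The growth factor GDF9 fell in 1 direction, with 3263 ± 1360.1, 446 ± 260.3 and 15.2 ± 17.5, against 9711 ± 1451, 5927 ± 420.1 and 5733 ± 1762 (-4.72 ± 0.30, adjusted p = 4.91e-11).

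ACCSL, whose name marks it as similar to an ACC synthase, was among the 12 largest decreases chosen as above. It was at 2.19, 775 and 7578 scaled reads in the later and 8341, 13377 and 24530.5 in the earlier libraries (-5.57 ± 0.25, adjusted p = 3.13e-13). PLEKHG1, TMEM196 and CLDN11 had the smallest spread of earlier stage means relative to the difference, under the same conditions and with a difference below -4. PLEKHG1, a protein with a pleckstrin homology domain, had 4600.2 ± 1386, 853 ± 311 and 40.7 ± 31.2 over the later stages, against 9422 ± 1870.0, 9883 ± 2373 and 9433 ± 1252 over the earlier ones (-4.18 ± 0.22, adjusted p = 3.63e-12). The other genes chosen among these 12 were UBASH3A, CCDC65, RAB27B, ZGLP1, PRSS2 and SLC28A1, with differences between -5.82 and -5.08. MOS and H1FOO, with differences of -5.79 and -5.26, fell outside the choice because their libraries overlapped.

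More regulators of meiosis and M phase were lower than higher. Of 47 tested, 22 (46.8%) were called lower and 10 (21.3%) higher, against 27.2% and 29.4% of all genes (median difference -0.36). In 1 direction 14 (29.8%) were lower and 6 (12.8%) higher, against 14.5% and 15.9%, so the higher share is near that of all genes. The kinase pair WEE1 and WEE2, which inhibit CDK1, moved in opposite directions. WEE1 had 108, 352 and 763 scaled reads in the later libraries, against 0, 2.12 and 14.7 in the earlier ones (5.67 ± 0.48, adjusted p = 4.35e-09). WEE2, the form of oocytes, had 0, 535 and 5444 in the later libraries, against 5714, 6856 and 7478 in the earlier ones (-5.05 ± 0.22, adjusted p = 2.44e-13). MOS, the kinase that holds eggs at metaphase II, fell to 0, 28.1 and 533, against 384, 1484 and 3125 (-5.79 ± 0.52, adjusted p = 9.53e-09). PTTG1 (securin) fell to 446, 3109 and 9011, against 12116, 17219 and 31508, with no overlap (-3.01 ± 0.18, adjusted p = 2.02e-11). CDK1 itself was higher (1.7 ± 0.23, adjusted p = 2.87e-06), and its partner CCNA2 did not pass (0.01 ± 0.16, adjusted p = 0.956). CCNA2 was uneven over the later stages, with 7073 to 9347 at 8 cells, 5712 to 10691 at 16 cells and 1264 to 2250 in blastocysts. Its earlier libraries had 2533 to 6579.

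DNA replication genes followed, with 19 of 50 (38.0%) called lower and 10 (20.0%) higher, against 27.2% and 29.4% of all genes. In 1 direction, 12 (24.0%) were lower and 7 (14%) higher, against 14.5% and 15.9% of all genes. LIG1, the ligase that joins Okazaki fragments, fell to 379, 735 and 2082 scaled reads, against 3574, 4771 and 7344 (-2.37 ± 0.21, adjusted p = 7.04e-09). POLE2, a subunit of polymerase epsilon, fell by 1.5 ± 0.19 (adjusted p = 8.85e-07). RRM2, a subunit of ribonucleotide reductase, was higher, with 1623 ± 409, 3240.1 ± 1228 and 7187 ± 1372, against 473 ± 98.3, 664 ± 109.6 and 988 ± 217 (2.28 ± 0.18, adjusted p = 1.06e-09).

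Genes of deadenylation, decapping and poly(A) control held 16 higher (32.7%, near the 29.4% of all genes) and 19 lower genes (38.8%, against 27.2%) of 49 (median difference -0.42), with 10 and 5 in 1 direction, and 10 lower in 1 direction without the 2 libraries that stood apart. The somatic poly(A)-binding protein gene PABPC1 had 3783, 19971 and 28003 scaled reads in the later and 2446, 3698 and 5434 in the earlier libraries (2.08 ± 0.17, adjusted p = 2e-09). Its oocyte relative PABPC1L was lower (-3.16 ± 0.37, adjusted p = 4.15e-07) and not in 1 direction, since its 8-cell mean of 48.1 was above the 43 of MII oocytes. YTHDF2, a reader of methylated adenosine that promotes decay, had 277, 1155 and 1678 in the later and 50.4, 66.4 and 162 in the earlier libraries (3.47 ± 0.25, adjusted p = 2.97e-10). PATL2 and EIF4ENIF1, which repress stored mRNA in oocytes, were lower (-2.92 ± 0.27 and -2.31 ± 0.17, adjusted p = 1.16e-08 and 7.79e-10). The cold shock protein YBX1 was higher (1.11 ± 0.17, adjusted p = 1.67e-05) and its germ cell form YBX2 lower (-1.63 ± 0.27, adjusted p = 2.72e-05).

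**Figure D5:**
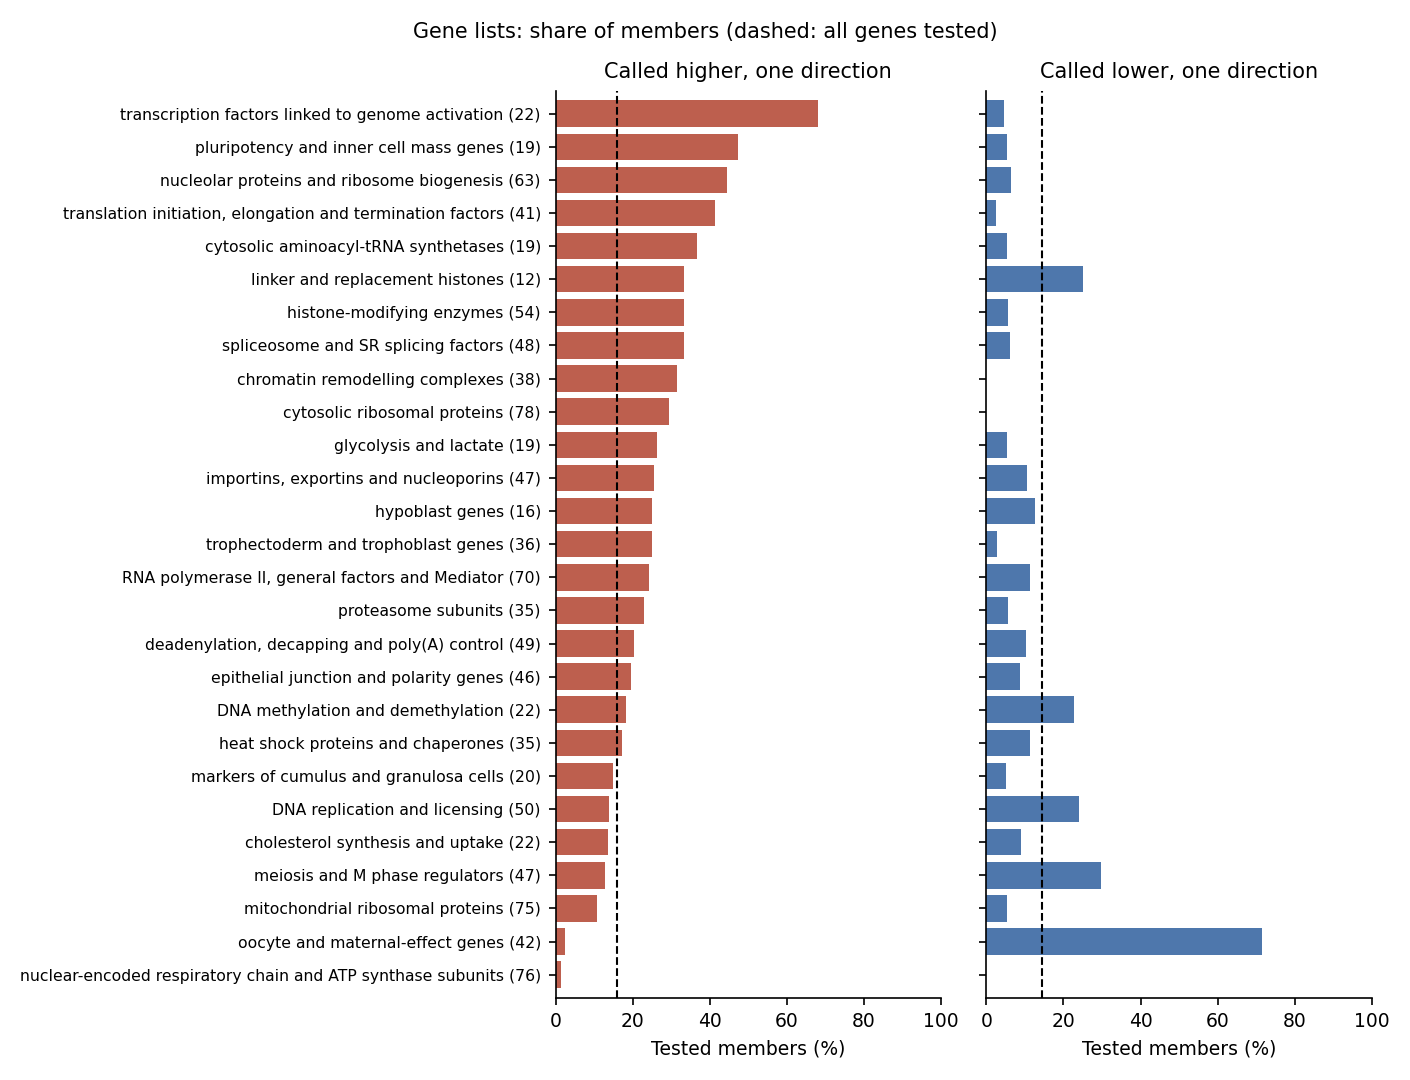
Percent of the tested members of each gene list (number in brackets) that were called higher (left) or lower (right) in the later stages with 1 direction over all stage means. Dashed lines mark all genes tested, 15.9% and 14.5%. The lists were written with earlier results of these data known. Genome activation factors reach 68.2% on the higher side and oocyte genes 71.4% on the lower side, and respiratory chain subunits are at 1.32% and 0.

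Some genes had reads on 1 side only. They passed the filter on reads through that side alone, so their direction was fixed and the counts of calls only describe them. Of the genes tested, 882 had 0 reads in all 9 earlier libraries, of which 632 were called and 327 kept 1 direction. Reads in all 9 later libraries were found for 16 of the 882. UGT1A1, a glucuronosyltransferase, had 7.95 ± 11.4, 165 ± 113 and 1982 ± 380.5 scaled reads in the later stages, and its mean was at least 2874-fold higher than 3 reads over the 9 earlier libraries. ZNF41, a zinc finger gene, had the opposite order, with 1298 ± 308, 391 ± 262 and 8.07 ± 2.95, at least 2263-fold higher. CD48, a surface protein of blood cells, was at least 2727-fold higher, with 1905 ± 738 in blastocysts. In the other direction 181 genes had 0 reads in all 9 later libraries, and 3 of them had reads in all 9 earlier ones. PLAC1, a gene known from the placenta, was among them, with 57.1 ± 23.3, 8.08 ± 9.58 and 2.88 ± 1.96 in GV and MII oocytes and 4-cell embryos, and its later mean was at least 65.8-fold lower at a floor of 3 reads. These floors cover counting error only, and reads after amplification are not independent molecules.

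Libraries of the 2 sides did not overlap at all for 616 higher genes (3.59% of those tested) and 383 lower genes (2.23%). Among the genes called between the sides, 2320 higher and 2175 lower ones did not keep 1 direction. Each later mean was set against the extreme of the earlier means, so breaks are counted by later stage even where 1 earlier stage lay apart. Counted so, the 8-cell stage alone broke the order for 1349 (58.1%) of the higher and 1374 (63.2%) of the lower ones. The blastocyst alone did so for 367 and 460, and the 16-cell stage alone for 201 and 103. Without the 8-cell stage, 4682 higher and 4133 lower genes kept 1 direction. A rule with 1 stage fewer is easier to meet. Without any 1 of the other stages the counts were 2696 to 3030 (higher) and 2487 to 2962 (lower). The 8-cell mean even lay beyond all earlier means on the far side for 284 and 484 genes.

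KPNA7, an importin of oocytes, missed the rule through its 8-cell stage. It had 32267 ± 9497 scaled reads at 8 cells, 2828 ± 1509 at 16 cells and 10.5 ± 2.35 in blastocysts, against 23084 ± 626, 31543 ± 7819.7 and 26436 ± 1816 (-4.68 ± 0.20, adjusted p = 1.22e-13). BTG4, an adaptor of the deadenylase, and the growth factor BMP15 also had their highest stage means at 8 cells, 38830.4 ± 13541 and 23305 ± 7159, though both were lower on the later side (-4.11 ± 0.35 and -3.42 ± 0.24, adjusted p = 5.47e-09 and 2.08e-10). For KPNA7, BTG4 and BMP15 these peaks rest on 8-cell replicate 2 (42881, 54177 and 31450), a library that stood apart. The other 8-cell libraries had 29349 and 24572 (KPNA7), 33750 and 28564 (BTG4), and 20459 and 18007 (BMP15). SLC39A12, a zinc transporter, and LEF1, a transcription factor of Wnt signalling, had 8-cell means of 1750.4 ± 814 and 5257 ± 602 and were lower over the sides (-4.5 ± 0.25 and -4.16 ± 0.22, adjusted p = 8.32e-12 and 5.7e-12). The oocyte-secreted OOSP1 missed the rule because its GV mean of 3818 lay below its 8-cell mean of 6222.

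On the higher side ZSCAN4, an activation gene, and MBD3L2, related to methyl-binding proteins, missed it because of the blastocyst. ZSCAN4 had 3087 ± 353, 1131 ± 797 and 5.63 ± 6.06 scaled reads in the later stages, and 4.02, 0 and 13.4 in the earlier ones (5.66 ± 0.53, adjusted p = 1.5e-08). MBD3L2 was at 2577 ± 638, 404 ± 204 and 1.11 ± 1.92, against at most 7.84 in the earlier libraries (5.54 ± 0.46, adjusted p = 2.93e-09). SPARC, a matrix protein, was carried by 16-cell embryos and blastocysts (3382 ± 1844 and 4492 ± 188, against 84.8 ± 136 at 8 cells and 21.5, 25.5 and 27.4 before). The keratin KRT8 reached 19587 ± 8018 in blastocysts alone and had 12 ± 18.6 at 8 cells and 59.4 ± 42 at 16 cells (5.17 ± 0.56, adjusted p = 1.24e-07).

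Markers of cumulus and granulosa cells were detected in all libraries. The summed level of 20 cumulus and granulosa markers was 887 to 17877 scaled reads in the later libraries (median 4751). In the earlier ones it was 3300 to 5463 (median 4070). Of the 20 members 8 (40%) were called higher and 4 (20%) lower, against 29.4% and 27.2% of all genes. On the later and earlier side, 0 and 1 members were at 0 in all libraries. The 3 sperm markers tested summed to 0 to 969 on the later side (median 40.7) and 0 to 30.9 on the earlier side (median 9.48). The 2 blood markers summed to 0 to 17.1 on the later side (median 0) and 9.56 to 119 on the earlier side (median 38.1). The part of such cells in the results was not tested.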

How the data were processed

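RNA was sequenced from 18 libraries of bovine oocytes and embryos, 3 pools of 10 for each of 6 stages. Per the labels' protocols, cDNA synthesis used random primers mixed with poly(A) primers, the cDNA was amplified isothermally (NuGEN Ovation) and it was read as single 80-base reads. The kit does not mark strand, so overlapping genes cannot be told apart. For 21668 genes the authors deposited log2-like values in 1 table. The submitters' processing notes name CASAVA 1.6, TopHat2 2.0.3, HTSeq, DESeq and build UMD3.1, and the handling of reads that match several places is not given in the sources used here. Ribosomal proteins, histones and other genes with close copies are uncertain to that degree.

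The deposited log2 values were inverted with the closed form of the variance-stabilising transformation, in which 0 reads take the value 1.10. All 390024 values gave whole reads within 1e-06, and totals of 2438473 to 11971840 reads per library. These depths set the detection limits. Of the genes listed by a locus number, 2521 of 5890 took a symbol from a RefSeq gene table of another assembly, used for names and gene order only.

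The test was limma 3.58.1 (R 4.3.3) on the deposited values, with stage as a factor over all 18 libraries, a trended empirical Bayes prior and the contrast of the 3 later against the 3 earlier stage means, two-sided. F tests in the same fit compared stages within a side. The 17138 genes with 1 or more reads in 3 or more libraries were tested, and a Benjamini-Hochberg adjusted p under 0.05 counted as a call. Tables and plots were made with Python 3.11.15, pandas 2.3.3 and matplotlib 3.10.9.

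The sides, the rule and the 30 gene lists were chosen with earlier results of these data known. Named genes were, per direction, the 12 largest differences among called genes of 1 direction without overlap and with a mean of at least 100 scaled reads, the 2 of smallest p in every list, the 3 of smallest spread relative to the difference among those over 4 in size, the 3 with 0 reads on the other side, the 4 largest of mixed direction, and genes known from oocytes and embryos. Not all of them are printed, and some are not reported here. Genes at the border of the direction rule were chosen after their values were seen. Other filters, scalings, a replicate block, other units and left-out libraries and stages were tried.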

Additional observations from a re-analysis of the deposited data

How the results depend on the processing

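The calls between the sides kept their counts within 1.5 times under other filters on reads, array weights, voom on the recovered reads, quantile normalization, library medians set equal, side as the only factor and every fit without 1 library. Without 1 library they ranged from 4760 to 5297 (higher) and 4407 to 4708 (lower), with 2280 to 3043 and 2235 to 2683 in 1 direction, 8560 to 9622 genes differing among the later stages and 244 to 626 among the earlier ones. The median of all genes was 0.07, and -0.18 with library medians set equal, when 4056 genes were higher and 5533 lower. Counts moved further in these cases. With stage means as the only units, 538 genes were higher and 109 lower, and the same 538 and 109 counts held for 1 direction. Without the 8-cell stage, 4682 and 4133 genes kept 1 direction. Among the earlier stages, 2024 genes differed with array weights and 818 without 8-cell replicate 2 and 16-cell replicate 1, an alternative chosen after seeing the data. DNMT3B reversed to 0.0743 without the 16-cell stage. The cause was not tested. Of 148 called named genes, 52 kept the call with stage means as units and 142 with side as the only factor.

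Replicate numbers are shared between stages. With a replicate block, 5118 genes were higher and 4742 lower, with 2744 and 2494 in 1 direction, and no named call was lost. Deviations of same-numbered libraries from their stage means had correlations of -0.108 to 0.202 across genes (median 0.040), with 11 of 45 pairs over 0.1. For libraries of different numbers and stages the median was -0.023, with 3 of 90 pairs over 0.1. Whether the numbers pair the samples was not tested. Of 18 libraries, 14 correlated best on average with their own number, which is a hint from the data and not from the design.

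Depth limits genes with few reads, most in 16-cell replicate 2, where 3 reads amount to 8.47 scaled reads. Pools of 10 and amplification limit every comparison, and the change of breed limits those of embryos with oocytes.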

Other observations

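Genes of 1 direction were set in the gene order of a RefSeq table of another assembly (ARS-UCD2.0). The next gene on the chromosome was also higher with 1 direction for 464 of 2287 higher genes (20.3%), against 15.5% over all 14791 neighbouring pairs. For lower genes it was 389 of 2220 (17.5%), against 15.0%. Neighbours share reads where they overlap, and no test was made.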
